A study of Mus musculus with 20 samples.

Results

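The change of the Tnfr2-/- effect between early and late colonoid culture was measured for 13539 of the 35240 gene symbols in the table, those with a mean value of at least 1. For each gene, the difference between Tnfr2-/- and WT cultures at days 1, 2 and 3 post-passage (early) was subtracted from the difference at days 5 and 7 (late) on the log2(value + 1) scale. This quantity, called the interaction below, is above 0 where Tnfr2-/- cultures gained on WT with time and below 0 where they lost. Values are normalized TPM, transcript abundances corrected for length and library total and then adjusted with size factors, summed per gene. A genotype difference was called open at a phase where it reached 0.5 on the log2 scale, so that genes could be sorted into those whose difference opened, closed, widened, narrowed or reversed.

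Colonoids are organoids that colon crypts form when embedded in a gel. Crypts came from 8-week-old male and female C57BL/6 mice (WT) or whole-body Tnfr2-/- mice (B6.129S2-Tnfrsf1b tm1Mwm/J), and every culture was kept in Matrigel with IntestiCult medium, passaged 5 times and filtered through a 70-µm mesh before seeding, with no treatment added. All 20 libraries were used, 12 early and 8 late, 1 from each of 2 mice per genotype on each day. The deletion was present in every cell of the donor mouse, and fibroblasts persisted beside the epithelium in such cultures, so that neither the deletion nor the RNA was confined to epithelial cells.

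TNFR2, encoded by Tnfrsf1b, is a receptor for tumor necrosis factor that recruits TRAF adaptors and activates NF-kappaB without a death domain. After passage, colonoids pass through a wound-like state with regenerative genes and growth factors, then proliferate and differentiate into absorptive and secretory cells. Fibroblasts answer inflammatory signals with cytokines of the IL-6 family, prostaglandins, chemokines and matrix-remodeling enzymes, several of which act back on the epithelium.

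Library sums lay between 900655 and 1111080, and the table gives no read depth, so no counting error is given. 10 markers of colon epithelium summed to between 12330 and 21110 in every library. Late sums were 15900 to 20550 in WT libraries, 19410 and 20150 in Tnfr2-/- libraries of day 5, and 14350 and 15050 in those of day 7. Markers of endothelium and of enteric glia and neurons summed to at most 4.166 and 2.569. 9 fibroblast markers summed to between 2087 and 4269 in early and between 1232 and 3993 in late WT libraries, with the lowest values in WT mouse 1 (1232 on day 5 and 1813 on day 7). In Tnfr2-/- libraries the sum was between 3136 and 4675 early, 3717 and 5111 on day 5, and 7872 and 8501 on day 7. Smooth muscle markers reached 227.4 and 267.0 in Tnfr2-/- libraries of day 7, against at most 142.9 in WT, with Myh11 and Des at medians under 1. Leukocyte markers were already apart early, at 17.31 to 28.63 in Tnfr2-/- and 8.533 to 14.86 in WT libraries, and summed to between 25.46 and 48.29 in late Tnfr2-/- and 10.01 and 20.89 in late WT libraries, with Ptprc, Cd3e and Cd79a at medians under 1. The part of these cell types in the results that follow was not tested, and in bulk RNA a change in cell number cannot be told apart from a change in RNA per cell. Tnfrsf1b itself was lower in Tnfr2-/- cultures by 1.72 on the log2 scale early and by 0.79 late, and its interaction of 0.94 (SE 0.26) was not called (limma adjusted p = 0.182).

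Few genes passed the test across all genes, and most of those were higher in Tnfr2-/- cultures late relative to early. The interaction was called for 20 genes (0.148% of those tested) by limma at an adjusted p under 0.05, 16 higher (0.118%) and 4 lower (0.0295%). At an unadjusted p under 0.05 there were 1583 genes (11.7%), 758 higher (5.6%) and 825 lower (6.09%). Fitting each mouse as a fixed term called 163 genes (1.2%), 122 higher (0.901%) and 41 lower (0.303%), and 47 when libraries of 1 mouse were treated as correlated. All 20 genes were called in both. On the late minus early changes of the mice, 2 against 2, none of the 20 was called (adjusted p 0.0921 to 0.248), while 1 other gene was. For all 20, the late minus early changes of both Tnfr2-/- mice lay on the same side of those of both WT mice, as they did for 20.8% of all genes on the higher and 24.1% on the lower side. When single libraries were left out in turn, Ereg, Brinp3 and Gm15914 stayed called in all 20 fits, Lif in 19 and Odc1 in 15, and the other 15 genes in 2 to 7. The count fell to 3 without Tnfr2-/- mouse 2 on day 7 and rose to 136 without WT mouse 2 on day 5, and it was 0 when either Tnfr2-/- mouse was left out.

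**Figure D1:**
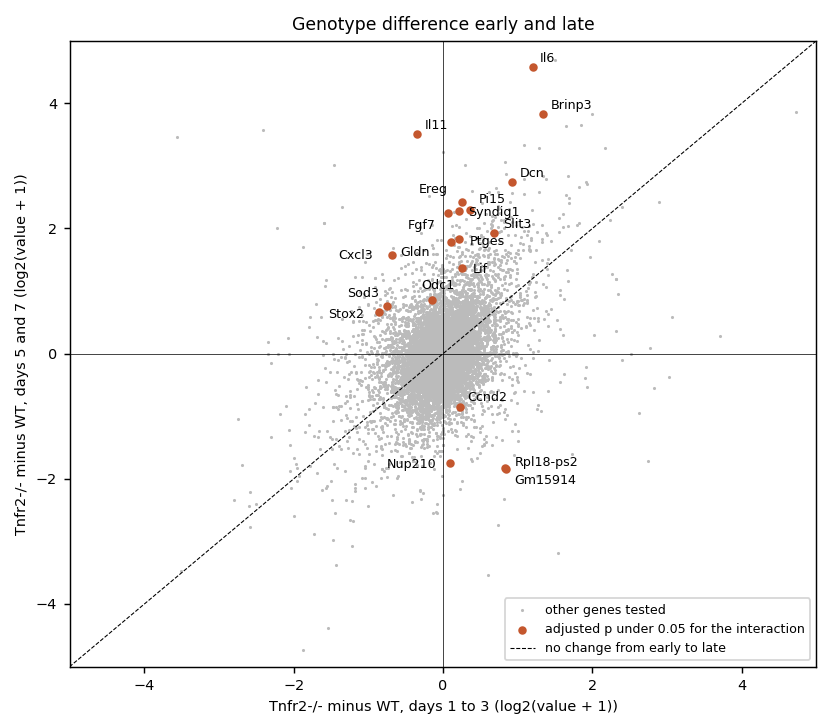
Difference between Tnfr2-/- and WT cultures at days 1 to 3 (x axis) against days 5 and 7 (y axis), log2(value + 1), 1 point per gene tested, with the 20 called genes in orange and named. The 16 genes called higher lie above the dashed line of no change and the 4 called lower lie below it; 2 genes fall outside the axes.

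Of the 1583 genes at an unadjusted p under 0.05, the difference opened for 774, upward for 372 and downward for 402, and it widened for 80, upward for 73 and downward for 7. It closed for 103 genes, from above for 40 and from below for 63, and reversed for 96, to higher for 61 and to lower for 35. Opening also outnumbered closing over all 13539 genes tested, at 8.12% upward and 9.65% downward against 2.31% from above and 3.07% from below, where the shares among the 1583 were 23.5%, 25.4%, 2.53% and 3.98%. The other 530 genes either narrowed (5) or stayed under 0.5 at both phases (525). Among the 758 genes with a higher interaction, the median change from early to late was -0.41 in WT and 0.48 in Tnfr2-/- cultures, and 542 changed in opposite directions in the genotypes. Among the 825 with a lower interaction, the medians were 0.30 and -0.37, with opposite directions for 442. Over all 13539 genes tested, 4028 changed in opposite directions, the median interaction was -0.03, and 46.9% of genes were above 0. Picking genes by their interaction favors changes of opposite direction. The counts of list members that follow are read against these shares, and no list was tested as a set.

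Ligands of the IL-6 family, which signal through gp130 to JAK and STAT3, had the highest median interaction of the 30 gene lists described. Of 7 members tested, 3 were called higher and 6 had an interaction above 0, with a median of 1.12. The members called were Il6 itself, Il11, a fibroblast cytokine that acts on stromal and epithelial cells, and Lif, leukemia inhibitory factor. The bases before their start sites are shown here because these genes and the chemokine gene Cxcl3 carried calls together. Sequences are from RefSeq on GRCm38.p6, 250 bases ending at the base before the start site, written in the direction of transcription. Capitals mark a match on either strand to an AP-1 site (TGANTCA) or an NF-kappaB site (GGGA, any base, then TTTCC). These motifs do not overlap, and RefSeq start sites can differ by some bases from the gene coordinates given below.
Il6, chr5:30012864-30013113, plus strand: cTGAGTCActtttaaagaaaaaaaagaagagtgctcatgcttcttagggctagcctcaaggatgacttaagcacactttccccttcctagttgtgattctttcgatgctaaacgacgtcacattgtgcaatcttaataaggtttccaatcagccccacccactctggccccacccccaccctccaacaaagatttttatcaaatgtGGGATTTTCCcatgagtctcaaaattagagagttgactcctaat
Il11, chr7:4778142-4778391, minus strand, 1 of 2 start sites: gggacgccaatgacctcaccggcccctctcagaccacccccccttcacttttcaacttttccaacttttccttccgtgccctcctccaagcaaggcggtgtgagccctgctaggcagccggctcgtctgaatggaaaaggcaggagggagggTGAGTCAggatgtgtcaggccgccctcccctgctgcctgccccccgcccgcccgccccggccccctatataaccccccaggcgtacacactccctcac
Lif, chr11:4257318-4257567, plus strand: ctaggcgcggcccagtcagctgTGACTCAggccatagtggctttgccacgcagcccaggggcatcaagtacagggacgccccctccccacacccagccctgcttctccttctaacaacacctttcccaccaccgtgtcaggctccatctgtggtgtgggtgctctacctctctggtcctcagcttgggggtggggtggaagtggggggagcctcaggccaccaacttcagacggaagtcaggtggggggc
Cxcl3, chr5:90785851-90786100, plus strand: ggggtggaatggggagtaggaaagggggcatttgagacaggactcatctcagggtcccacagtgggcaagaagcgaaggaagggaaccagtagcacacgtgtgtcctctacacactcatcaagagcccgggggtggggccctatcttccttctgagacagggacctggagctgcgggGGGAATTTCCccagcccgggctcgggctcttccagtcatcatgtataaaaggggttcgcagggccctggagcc

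The AP-1 match began 249 bases before the start in Il6, 98 in Il11 and 228 in Lif, and the NF-kappaB match 44 bases before the start in Il6 and 73 in Cxcl3. An AP-1 match was found in 4 of the 5 IL-6 family ligands with a promoter in the table, against 6.05% of the 9998 tested genes with one. An NF-kappaB match was found in 1 of these 5 ligands and in 4 of 15 chemokine genes (Csf1, Cxcl1, Cxcl2 and Cxcl3), against 0.48%. Neither motif was found at the other start site of Il11 or before Ptgs2, NF-kappaB letters were in none of 16 prostaglandin genes and AP-1 letters in 1, and neither was in any of 23 immediate early genes. A match describes the letters only, and these shares count genes with any start site holding it.

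Il6 (chromosome 5, 30013114 to 30019981, GRCm38) was at a median of 1.177 in early WT (0.0 to 2.956) and 3.91 in early Tnfr2-/- libraries (1.186 to 5.283). On day 5 it was listed at 0 in both WT libraries and stood at 43.11 and 44.51 in Tnfr2-/- cultures. On day 7 it was 3.954 and 0.0 in WT and 30.44 and 24.39 in Tnfr2-/- cultures. Late groups did not overlap, and the interaction was 3.38 (SE 0.54, limma adjusted p = 0.0403).

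Il11 (chromosome 7, 4772373 to 4782859) was higher in WT than in Tnfr2-/- cultures on day 1, at 174.9 and 260.2 against 115.3 and 87.55. On day 5 it was at 6.244 and 6.962 in WT while it stood at 453.8 and 433.0 in Tnfr2-/- cultures. On day 7 WT mouse 1 reached 437.6, above both Tnfr2-/- libraries (238.6 and 342.8), whereas WT mouse 2 was at 37.13. The groups therefore overlapped on day 7 through 1 WT library, with a genotype difference of 5.87 on day 5 and 1.15 on day 7. The interaction was 3.86 (SE 0.66, limma adjusted p = 0.0471).

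Lif (chromosome 11, 4257557 to 4272514) stayed between 27.57 and 46.52 in all 10 WT libraries. It was between 32.98 and 49.16 in early Tnfr2-/- libraries, 141.0 and 134.7 on day 5, and 72.57 and 79.78 on day 7. The change was thus on the Tnfr2-/- side, with an interaction of 1.12 (SE 0.15, adjusted p = 0.0137). Cntf, Clcf1 and Ctf1, further ligands of the family, had interactions of 0.70, -0.29 and 1.07 and were not called (adjusted p 0.601 to 0.691).

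**Figure D2:**
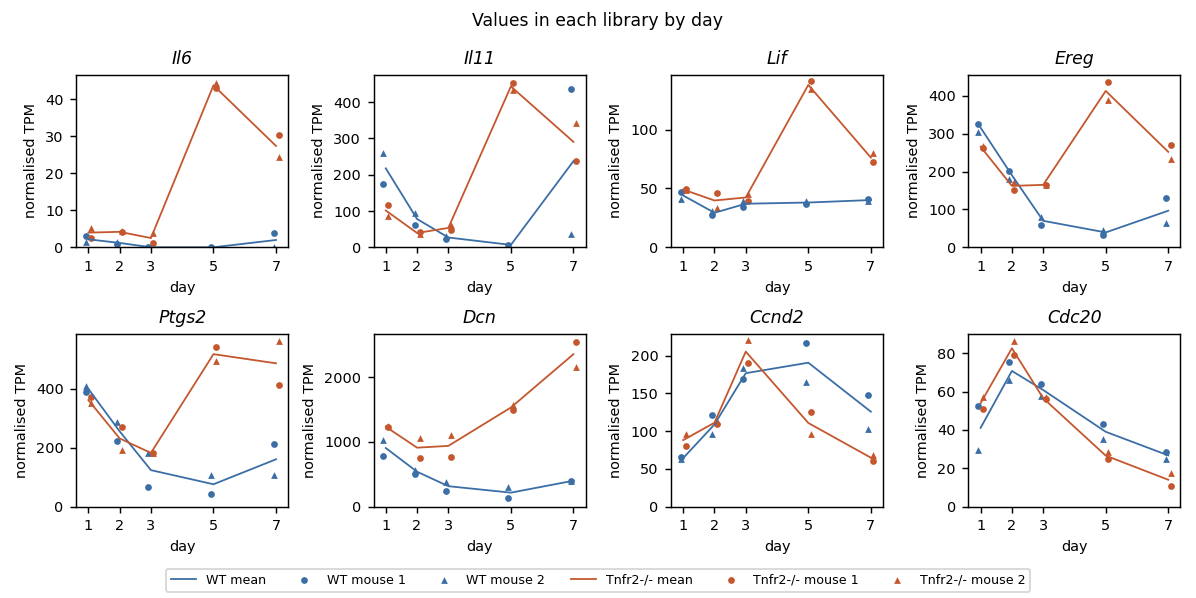
Normalized TPM (y axes, from 0) on each day post-passage (x axes) for 8 genes, with circles for mouse 1, triangles for mouse 2 and lines through the means of WT (blue) and Tnfr2-/- (orange) cultures. On day 5 Il6, Il11, Lif, Ereg and Ptgs2 are higher in both Tnfr2-/- libraries than in both WT ones. Il6 already is on days 2 and 3, Il11 and Ereg on day 3, and Ptgs2 on day 3 by a narrow margin. In 1 WT library Il11 is at 437.6 on day 7. Ccnd2 and Cdc20 are lower in both Tnfr2-/- libraries on days 5 and 7.

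Epiregulin had the lowest p of all genes. Ereg (chromosome 5, 91074622 to 91093646) encodes a ligand of the EGF receptor made in regenerating epithelium and in stroma. In WT it went from a median of 190.2 early (59.87 to 326.0) to 55.07 late (32.2 to 129.3), and in Tnfr2-/- cultures from 168.4 (152.4 to 267.8) to 329.8 (233.8 to 435.8). Late groups did not overlap. The genotype difference was 0.25 early and 2.42 late, an interaction of 2.17 (SE 0.24, limma adjusted p = 0.00483). By day it was -0.25, -0.23 and 1.24 on days 1, 2 and 3, then 3.38 on day 5 and 1.46 on day 7. It was thus already present on day 3, within the early phase. Of 12 EGF family ligands and ErbB receptors tested, Ereg was the only 1 called, and the median interaction was 0.17. Nrg1, a ligand of ErbB3 and ErbB4 made by stroma, differed by -0.68 early and 0.80 late (interaction 1.48, SE 0.36, adjusted p = 0.152, 0.00986 with the mouse as a fixed term). Areg, the neighbor of Ereg in function and genome, had an interaction of 0.32 (SE 0.19, adjusted p = 0.550).

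Among genes of prostaglandin E2 synthesis, the inducible enzymes had the largest interactions of those named. Ptges, the terminal synthase, was called with an interaction of 1.61 (SE 0.25, adjusted p = 0.0341). It was at 15.52 and 21.15 in WT against 82.82 and 112.9 in Tnfr2-/- cultures on day 5, and at 66.19 and 44.61 against 121.1 and 151.4 on day 7. Ptgs2, the inducible cyclooxygenase upstream of it, had late values of 44.21 to 213.6 in WT and 412.1 to 560.2 in Tnfr2-/- cultures. Its interaction of 2.13 (SE 0.41) missed the threshold (adjusted p = 0.0645) and was called with the mouse as a fixed term (0.0324). Ptger2, a receptor of prostaglandin E2, had an interaction of 1.22 (SE 0.37, adjusted p = 0.226, 0.0480 with the fixed term). Of 19 genes of this pathway, 10 were above and 9 below 0 and 5 were at an unadjusted p under 0.05, all higher. The median interaction was 0.15, and it turned to -0.0128 over genes with a mean of at least 5.

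Chemokines and IL-1 family genes included further members with late differences. Of 22 chemokines and colony-stimulating factors, 1 was called (4 with the mouse as a fixed term) and 6 were at an unadjusted p under 0.05, all higher, with a median of 0.31. Cxcl3, a neutrophil attractant of low level, reversed: it was between 0.7575 and 2.045 in early WT and between 0.0 and 1.857 in early Tnfr2-/- libraries, then between 0.0 and 1.458 against 3.003 and 6.841 late (interaction 2.25, SE 0.39, adjusted p = 0.0471). Cxcl1, of the same function, had late values of 12.86 to 61.94 in WT and 98.84 to 128.7 in Tnfr2-/- cultures, with an interaction of 1.51 (adjusted p = 0.162, 0.0307 with the mouse as a fixed term). Csf3, the granulocyte growth factor, went from a difference of 0.61 to 2.58 (adjusted p = 0.106, 0.0325 with the fixed term).

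Of 10 genes of the IL-1 family and its receptors, none was called and 6 were at an unadjusted p under 0.05, all higher, with a median interaction of 1.02. Il1rl1, the IL-33 receptor, was at 1051 to 1353 in late Tnfr2-/- libraries (interaction 3.19, SE 0.76, adjusted p = 0.146). In late WT it was at 10.16, 11.81 and 44.32, and at 731.1 in WT mouse 1 on day 7, the library that also stood apart for Il11. Il1r1, the signaling IL-1 receptor, was lower in Tnfr2-/- cultures early (-0.71) and higher late (0.56), an interaction of 1.28 (adjusted p = 0.184, 0.0320 with the mouse as a fixed term). Il1a had late values of 29.56 to 40.74 in Tnfr2-/- and 3.24 to 14.3 in WT cultures, with adjusted p = 0.282.

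Most genes of the NF-kappaB list and most immediate early genes had interactions above 0. Of 23 NF-kappaB subunits and feedback genes, 22 had an interaction above 0 and 6 were at an unadjusted p under 0.05, all higher, with none called and a median of 0.35. Tnfaip3, which encodes the feedback inhibitor A20, went from a difference of 0.00 to 0.88, Nfkbiz from 0.16 to 0.69, and Icam1, an adhesion molecule, from -0.13 to 0.69 (adjusted p 0.212 to 0.290). Of 31 immediate early genes, 24 were above 0 and 10 at an unadjusted p under 0.05, all higher, with a median of 0.33 and none called (3 with the mouse as a fixed term). Fosl1, an AP-1 subunit, was at 14.83 to 22.52 in late WT and 28.9 to 50.88 in late Tnfr2-/- libraries (interaction 1.05, SE 0.20, adjusted p = 0.0627). Nr4a2, an orphan nuclear receptor induced by prostaglandins, had an interaction of 1.37 (adjusted p = 0.0711), and both were called with the mouse as a fixed term (0.0310 and 0.0324).

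Fibroblast and matrix genes had interactions above 0 in most cases, alongside the marker sums given above, whose part in this was not tested. Of 30 fibroblast markers, 25 had an interaction above 0, 10 were at an unadjusted p under 0.05, all higher, and 1 was called (5 with the mouse as a fixed term), with a median of 0.64. That gene, Dcn, encodes decorin, a collagen-binding proteoglycan. In WT the median was 540.0 early and 348.6 late, with 135.4 and 297.4 on day 5. In Tnfr2-/- cultures the early median was 1086, and the 4 late values lay between 1493 and 2551. The interaction was 1.81 (SE 0.29, limma adjusted p = 0.0403). Foxf1 and Twist1, mesenchymal transcription factors, had interactions of 1.26 and 1.35 (adjusted p 0.190 and 0.201, 0.0104 and 0.0325 with the mouse as a fixed term). From early to late the list median differed by -0.59 for the first WT mouse and 0.14 for the second, and by 0.45 and 0.41 for those lacking TNFR2. Of 8 smooth muscle and myofibroblast markers, 1 was at an unadjusted p under 0.05, with a median of 0.19 (-0.00983 without WT mouse 1).

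Of 22 collagens, 20 were above 0 and 9 at an unadjusted p under 0.05, all higher, with a median interaction of 0.68 and none called (5 with the mouse as a fixed term). Col12a1, a fibril-associated collagen, had late values of 50.89 to 197.4 in WT and 181.3 to 565.5 in Tnfr2-/- cultures (interaction 1.49, adjusted p = 0.187, 0.0324 with the mouse as a fixed term). Col11a1, of fibrillar collagen, went from a difference of 0.70 to 2.18, and Col4a3, of basement membrane collagen and at most 5.76 in any library, from -0.91 to 1.21. Of 38 matrix glycoproteins and proteoglycans, 9 were higher and 1 lower at an unadjusted p under 0.05, with a median of 0.56, and 1 was called (3 with the fixed term). Tnc, tenascin-C of wound matrix, was at 105.4 to 400.1 in late WT and 533.8 to 926.7 in late Tnfr2-/- libraries (interaction 1.35, adjusted p = 0.162, 0.0358 with the fixed term).

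Enzymes that cut or cross-link matrix had similar medians to their substrates. Of 30 metalloproteinases, related proteases and inhibitors, 28 were above 0 and 9 at an unadjusted p under 0.05, all higher, with a median of 0.60 and none called (3 with the mouse as a fixed term). Mmp3, stromelysin, was at 340.2 to 1670 in late WT and 2817 to 6571 in late Tnfr2-/- libraries, and went from a difference of 0.52 to 2.40 (SE of the interaction 0.40, adjusted p = 0.0973, 0.0111 with the mouse as a fixed term). Adamts4, which cuts proteoglycans, was at 4.042 to 25.59 in late WT and 22.77 to 44.84 in late Tnfr2-/- libraries (adjusted p = 0.112, 0.0324 with the mouse as a fixed term). Of 21 collagen cross-linking and folding enzymes, 19 were above 0 and 6 at an unadjusted p under 0.05, with a median of 0.53. Loxl2 (1.62), Plod2 (1.17) and P4ha1 (0.80) had the lowest p in that list and were called with the mouse as a fixed term (0.0104, 0.0169 and 0.0261) only.

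Growth factors of the stroma included 1 called gene. Fgf7, keratinocyte growth factor, which fibroblasts make and epithelium receives, was at 68.94 and 85.86 in WT on day 1 and 4.899 and 14.77 on day 5, against 48.75 and 59.75, then 53.2 and 39.47, in Tnfr2-/- cultures. Late values were 4.899 to 15.09 in WT and 39.47 to 78.19 in Tnfr2-/- cultures without overlap, and the interaction was 2.19 (SE 0.38, limma adjusted p = 0.0471). Hgf, the ligand of Met, had late values of 13.22 to 36.71 in WT and 55.45 to 73.84 in Tnfr2-/- cultures, with an interaction of 1.72 (SE 0.34, adjusted p = 0.0659, 0.00677 with the mouse as a fixed term). Of 30 genes in this list 6 were higher and 1 lower at an unadjusted p under 0.05, with a median of 0.38 and 1 called (3 with the fixed term). Of 27 genes of TGF-beta signaling 21 were above 0 and 3 at an unadjusted p under 0.05, all higher, with a median of 0.48. Tgfbr1, the type I receptor, went from a difference of 0.08 to 0.78 (adjusted p = 0.173). The 23 Wnt ligands, R-spondins and inhibitors had a median of 0.32, with Wnt5a and Wnt11 at an unadjusted p under 0.05.

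Of 37 regenerative and YAP-linked epithelial genes, 27 were above 0, and 9 were higher and 1 lower at an unadjusted p under 0.05, with a median of 0.32. Ereg was the called member, and 4 were called with the mouse as a fixed term. Krt23, a keratin of stressed epithelium, was at 20.11 to 56.69 in late WT and 99.15 to 156.4 in late Tnfr2-/- libraries, with an interaction of 1.38 (SE 0.26, adjusted p = 0.0543, 0.0261 with the mouse as a fixed term). The study's own fetal intestine list, by contrast, had a median interaction of 0.07 over 273 genes, with 34 higher and 19 lower at an unadjusted p under 0.05, and 1 called in each direction (11 higher and 3 lower with the fixed term).

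The other called genes of higher interaction have more varied roles. Odc1, ornithine decarboxylase, the first enzyme of polyamine synthesis, was at 148.4 to 155.0 in the 4 late WT libraries and 210.5 to 342.8 in the late Tnfr2-/- ones. The change from early to late was -1.13 in WT and -0.13 in Tnfr2-/- cultures, an interaction of 1.0 (SE 0.14, limma adjusted p = 0.0204). Brinp3, a gene best known from neurons, went from 12.55 and 9.808 on day 1 to 1.637 and 1.075 on day 7 in WT, and from 12.6 and 16.96 to 34.12 and 24.93 in Tnfr2-/- cultures (interaction 2.48, SE 0.32, adjusted p = 0.010). Slit3, a secreted guidance ligand, and Gldn and Pi15, which encode secreted proteins, had interactions of 1.23, 1.69 and 1.94. Syndig1, a synapse-linked membrane protein, had 2.07. Late values of each of these 4 genes did not overlap between the genotypes. Sod3, extracellular superoxide dismutase, and Stox2 reversed from lower to higher, with differences of -0.76 and -0.86 early against 0.77 and 0.66 late. Early values of Sod3 did not overlap, with every Tnfr2-/- library below the lowest WT one (11.23), and Stox2 stood below 11 in every library.

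The 4 genes called lower comprised 2 protein-coding genes and 2 pseudogenes. Ccnd2, cyclin D2, which drives entry into the cell cycle, reached 216.3 and 164.8 in WT on day 5 against 125.5 and 96.0 in Tnfr2-/- cultures, and 148.3 and 103.1 against 60.92 and 68.7 on day 7. On day 3 it had been 169.5 and 183.8 against 189.8 and 220.7. Its interaction was -1.08 (SE 0.18, limma adjusted p = 0.0471). Nup210, a nuclear pore membrane protein, stayed between 7.456 and 19.26 in WT and went to between 1.488 and 3.263 in late Tnfr2-/- libraries (interaction -1.83, SE 0.32, adjusted p = 0.0471). The others were processed pseudogenes, which share reads with near-identical copies and are uncertain. Gm15914 was listed at 0 in all but both WT libraries of day 7 (10.83 and 12.51) and both Tnfr2-/- libraries of day 3 (4.872 and 4.413), and Rpl18-ps2 was at most 4.513.

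Genes of mitosis had interactions below 0 with few exceptions, and here and in the lipid lists the part of the lower epithelial marker sum on day 7 was not tested. Of 51, 49 had an interaction below 0 and 9 were at an unadjusted p under 0.05, all lower, with a median of -0.39 and none called. The median change from early to late was -0.84 and -0.68 in WT and -1.18 and -1.14 in Tnfr2-/- mice, below 0 in all 4. Cdc20, which activates the anaphase-promoting complex, was at 24.99 to 42.89 in late WT and 10.52 to 28.51 in late Tnfr2-/- libraries (interaction -0.91, SE 0.23, adjusted p = 0.154, 0.0325 with the mouse as a fixed term). Plk1, a mitotic kinase, had late values of 27.02 to 41.2 against 11.47 to 19.87, with the same interaction of -0.91 (adjusted p = 0.165, 0.0436 with the fixed term). Kif23, a motor of cytokinesis, had -0.63 (adjusted p = 0.252). Genes of DNA replication and S phase had a median of -0.16 and 9 of 50 lower and 1 higher at an unadjusted p under 0.05, with none called (1 higher with the fixed term). Of 17 D cyclins and CDK inhibitors, 3 were lower at an unadjusted p under 0.05 (Ccnd2, Ccnd1 and Cdkn2c) and none higher.

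The promoter of Cdc20 is shown as that of the mitotic gene with the lowest p. Capitals mark a match to the cell cycle homology region core (TTTGAA), 18 bases before the start, in the same kind of window as above.
Cdc20, chr4:118437344-118437593, minus strand: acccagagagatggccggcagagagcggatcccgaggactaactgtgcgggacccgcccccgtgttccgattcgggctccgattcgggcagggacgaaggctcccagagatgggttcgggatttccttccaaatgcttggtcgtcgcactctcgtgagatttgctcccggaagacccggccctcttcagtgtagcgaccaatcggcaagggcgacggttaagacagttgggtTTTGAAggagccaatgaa

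That core was present in 13 of 43 mitotic genes with a promoter in the table (30.2%), against 12.8% of all 9998, and the CCAAT letters in 30 of 43 (69.8%) against 40.7%. The core was not found before Plk1. CCAAT was likewise present in 16 of 17 cholesterol synthesis genes (94.1%). The core was found in 1 and an AP-1 match in 2 of those 17, and a sterol regulatory element (TCACNCCAC) in 1 (5.88%, against 1.25% of all).

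All 25 cholesterol synthesis genes tested had an interaction below 0, against 53.1% of all genes, and 12 were at an unadjusted p under 0.05, with a median of -0.35 and none called. Tm7sf2, a sterol reductase, had an interaction of -1.0 (adjusted p = 0.216). Of 22 fatty acid synthesis genes, 8 were lower and none higher at an unadjusted p under 0.05, with a median of -0.27. Scd2, a fatty acid desaturase, was at 743.8 to 1107 in late WT and 616.5 to 711.4 in late Tnfr2-/- libraries, and went from a difference of 0.24 to -0.45 (adjusted p = 0.0711, 0.0183 with the mouse as a fixed term). Fasn, fatty acid synthase, went from 0.35 to -0.46 (adjusted p = 0.0801, 0.0494 with the fixed term).

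Goblet, xenobiotic, transporter and brush border lists had medians below 0, with no gene called. The part in them of the lower epithelial marker sum of Tnfr2-/- libraries on day 7 (14350 and 15050) was not tested. Goblet cell mucus and secretory genes had a median interaction of -0.80, and 5 of 30 were lower and 1 higher at an unadjusted p under 0.05. Their median change from early to late was above 0 in every mouse, at 1.82 and 1.60 in WT mice and 0.92 in each Tnfr2-/- mouse. The study's own goblet cell list had a smaller median interaction of -0.29, with 1 of 16 lower and 1 higher, and median changes that overlapped, at 1.68 and 1.13 in WT and 1.23 and 1.08 in Tnfr2-/- mice. Fut2, which fucosylates mucins, differed by -0.03 early and -0.89 late, whereas Muc1, a membrane mucin, was higher late (1.35). Xenobiotic enzymes had a median of -0.55, with 8 of 42 lower and none higher at an unadjusted p under 0.05. Ces1d, a carboxylesterase, was at 10.65 to 45.27 in late WT and 1.421 to 2.719 in late Tnfr2-/- libraries, and its difference was -1.22 early (interaction -1.86, adjusted p = 0.275). Ion and water transporters had a median of -0.48, with 5 of 29 lower and 1 higher (2 called lower with the mouse as a fixed term). Cftr, the apical chloride channel, went from a difference of -0.08 to -1.31 and Scnn1b, a subunit of the sodium channel ENaC, from 0.86 to -0.97 (adjusted p 0.251 and 0.215, the latter 0.0369 with the mouse as a fixed term), while Slc9a2, a sodium-proton exchanger, was higher late (0.97). Brush border and digestion genes had a median of -0.39 (-0.456 to -0.0557 when 1 mouse was left out), with 2 of 34 lower and 3 higher. The median of 18 general markers of colon epithelium was -0.22. Of enteroendocrine genes, 11 hormones and factors had a median of -0.30 (4 above and 7 below 0), and the study's own list of 21 had 0.01, with 4 higher and 1 lower at an unadjusted p under 0.05. Claudins and tight junction proteins had a median of 0.05, cornified envelope genes 0.22 and keratins 0.24.

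**Figure D3:**
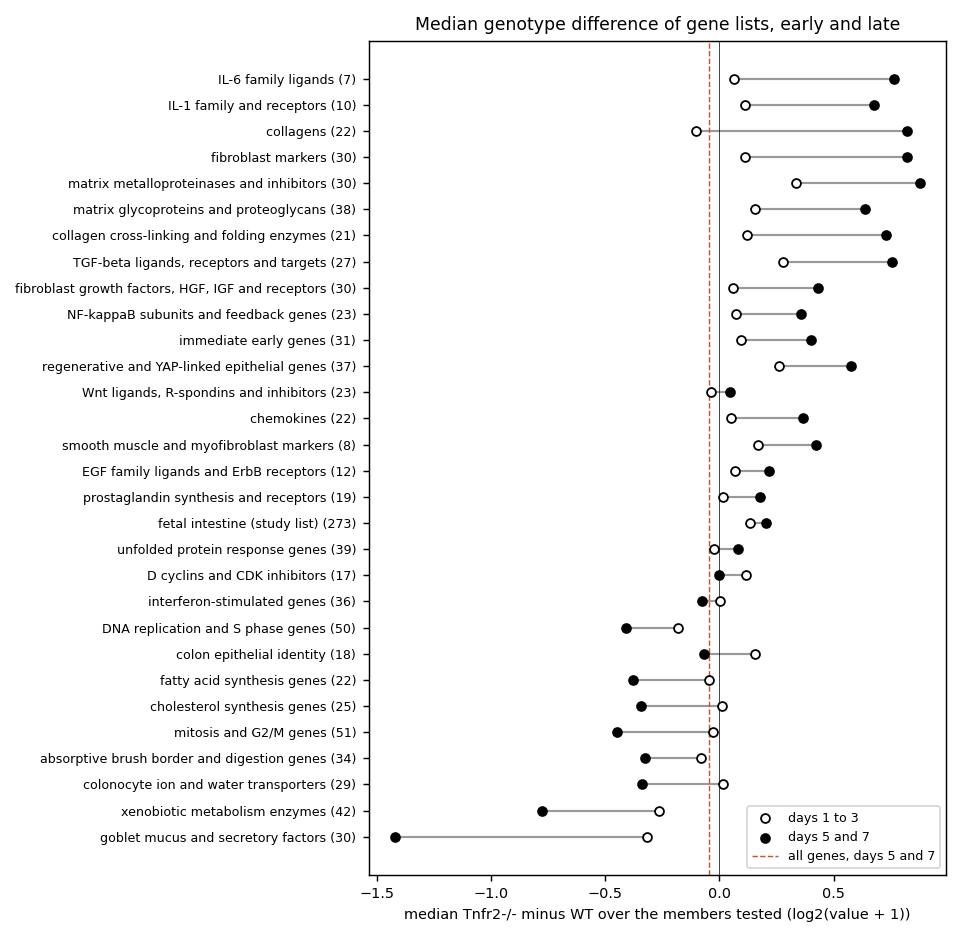
Median difference between Tnfr2-/- and WT cultures over the members of 30 gene lists (number tested in parentheses), at days 1 to 3 (open circles) and days 5 and 7 (filled circles), log2(value + 1), ordered by median interaction. Late medians lie to the right of early ones for cytokine, chemokine and matrix lists, and to the left for lipid, mitotic, goblet, transporter and interferon-stimulated genes, with goblet genes reaching -1.42.

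The difference closed for few genes, and none of these was called. Of 17 genes eligible for naming, the 6 with the largest interaction were Olfml2b, Trpa1, Foxf2 and Csrp1, which had been lower in Tnfr2-/- cultures, and Anpep and Rpusd3, which had been higher. Anpep, a brush border aminopeptidase, was at 13.01 to 15.89 in early Tnfr2-/- and 3.251 to 6.789 in early WT libraries. Late values overlapped, at 5.625 to 23.82 against 4.194 to 14.47, and the genotype difference was -0.98 on day 5 and 1.59 on day 7, so that the sign differed between the late days. Trpa1, an irritant-gated ion channel, was at 16.85 to 99.59 in early WT and 7.648 to 32.32 in early Tnfr2-/- libraries, and late at 8.333 to 20.37 against 10.42 to 18.55. The early differences thus came with higher WT values, and the change from early to late was -1.57 in WT and -0.26 in Tnfr2-/- cultures. Csrp1, an actin-binding protein of contractile cells, and Olfml2b, a matrix protein, went from -0.77 and -1.14 to 0.33 and 0.29, and both were called with the mouse as a fixed term (0.0325 and 0.0358), unlike Foxf2, a fibroblast transcription factor (adjusted p 0.247 and 0.110). Rpusd3, a pseudouridine synthase of mitochondria, went from 0.96 to -0.31 (adjusted p = 0.181).

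Among reversals both directions occurred. Of 25 eligible genes, the 6 with the largest interaction were Stc1, Krt16, Glis3 and Wnt5a, which became higher, and Tmem268 and Erfe, which became lower, none of them called. Wnt5a, a Wnt ligand of the stroma, was at a median of 98.36 in early WT and 51.33 in early Tnfr2-/- libraries, then at 67.19 and 108.3 late, with differences of -0.76, -0.81 and -0.62 on days 1, 2 and 3, 1.30 on day 5 and 0.75 on day 7. Its sign was thus the same on each day of a phase (interaction 1.76, SE 0.48, adjusted p = 0.182, 0.00986 with the mouse as a fixed term). Glis3, a zinc finger transcription factor, likewise went from -1.35 to 0.55 (adjusted p = 0.182, 0.0253 with the fixed term). Stc1, stanniocalcin-1, was at 41.94 to 74.0 in late Tnfr2-/- libraries and 4.475 to 21.23 in late WT ones except WT mouse 1 on day 7 (76.44), the library that also stood apart for Il11 and Il1rl1 (adjusted p = 0.120, 0.0426 with the fixed term). Krt16, a keratin of injured epithelium, differed between late and early by -1.96 in WT and by 0.01 in Tnfr2-/- cultures. Erfe, a secreted regulator of iron handling, went from a difference of 0.67 to -1.09 (adjusted p = 0.0711, 0.0325 with the fixed term). Tmem268, of little known function, differed by 1.68 in WT and by -0.08 in Tnfr2-/- cultures.

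Genes of largest interaction in the opening classes were partly the called ones. Of 122 eligible for the upward class, they were Il11, Fst, Fgf7, Ereg, Ptgs2 and Syndig1. Fst, follistatin, which binds activins, was at 1.589 to 8.52 in late WT and 19.41 to 63.54 in late Tnfr2-/- libraries (interaction 2.21, adjusted p = 0.145, 0.0359 with the mouse as a fixed term). Of 114 eligible for the downward class, they were Plac9b, Nup210, Dmpk, Chtf18, Fancm and L3mbtl2. Chtf18, which loads the sliding clamp at replication forks, was at 5.959 to 11.83 in late WT and 2.335 to 4.709 in late Tnfr2-/- libraries (interaction -1.49, adjusted p = 0.0688), and L3mbtl2, a Polycomb-linked protein, had late values of 10.87 to 26.79 against 6.16 to 7.309 (interaction -1.37, adjusted p = 0.0590). Both were called with the fixed term (0.0325 and 0.0324). Dmpk, a kinase, was called by neither fit, nor was Fancm, a DNA repair helicase, and Plac9b, called with the fixed term only (0.0338), has a near-identical copy and is uncertain.

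**Figure D4:**
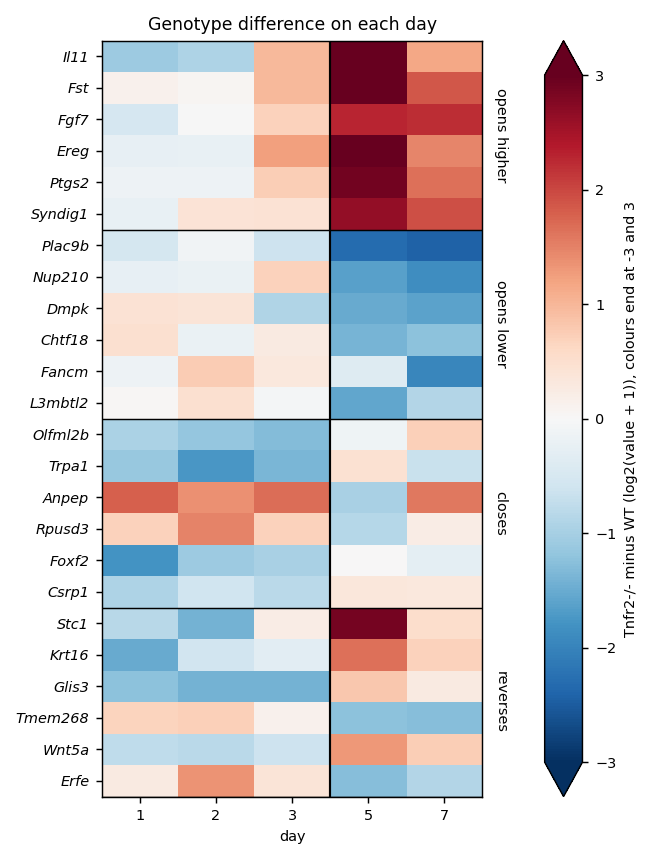
Difference between Tnfr2-/- and WT cultures on each day (columns, days post-passage) for the 6 genes of largest interaction in each class (rows), log2(value + 1), from blue (lower) to red (higher), with a line between early and late days. The 6 genes that open upward are all above 2 on day 5, and Anpep is negative on day 5 and positive on the other days.

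Interferon and unfolded protein response lists had medians near that of all genes. Of 36 interferon-stimulated genes, none was at an unadjusted p under 0.05 in either direction, with a median interaction of -0.10, and the median change from early to late was 1.1 in WT and 1.12 in Tnfr2-/- cultures. Of 39 genes of the unfolded protein response, 2 were lower and none higher, with a median of 0.05.

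The changes in individual mice are given for 4 lists. For collagens the median change from early to late was -0.31 and 0.22 in WT and 0.92 and 0.97 in Tnfr2-/- mice, and for metalloproteinases and inhibitors -0.03 and -0.04 against 0.63 and 0.85. For cholesterol synthesis it was 0.34 and 0.16 against -0.21 and -0.14, with opposite signs. For xenobiotic enzymes it was 0.99 and 0.90 against 0.44 and 0.20, a smaller gain in Tnfr2-/- cultures. With 2 mice per genotype, an exact permutation test of any such median cannot give a two-sided p below 0.333, and none was run.

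**Figure D5:**
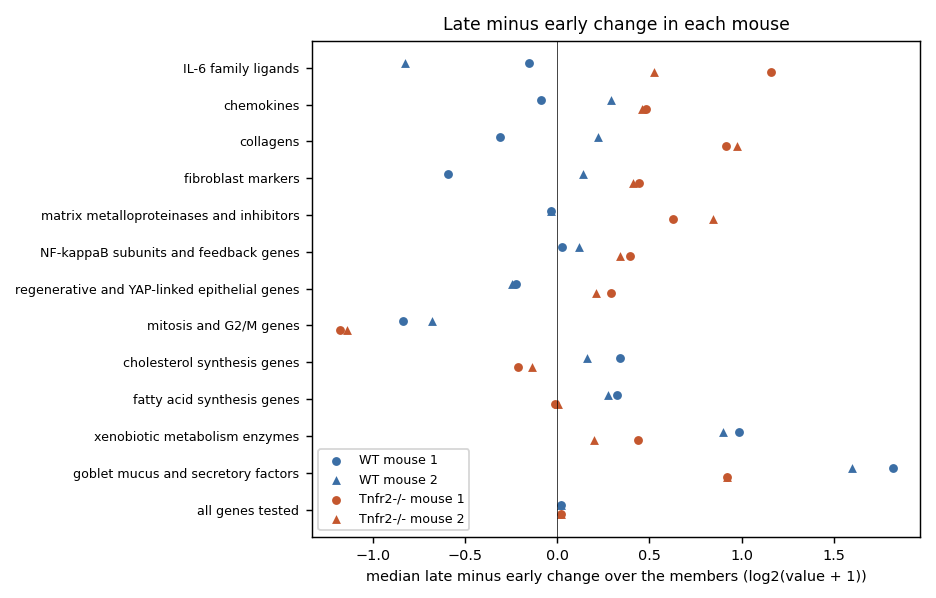
Median change from early to late days over the members of 12 gene lists and over all genes (x axis, log2(value + 1)), in each of the 2 WT (blue) and 2 Tnfr2-/- (orange) mice. In every list shown the mice of 1 genotype lie on the same side of those of the other, and for all genes the 4 medians lie near 0. The 12 lists are a selection. For brush border, general epithelial, interferon-stimulated and the study's goblet genes, not shown, the mice of the genotypes overlap. Of single genes, 20.8% did not overlap on the higher and 24.1% on the lower side.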

How the data were processed

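RNA of 20 colonoid libraries was sequenced with reads of 75 bases. The authors used CASAVA, kallisto and sleuth with mm10 (the sample records give no software versions, and the paper lists 1 for kallisto and sleuth). The deposited table holds a signal per transcript and library, TPM that the authors divided by a size factor. Its columns of the authors' own test statistics, p-values and q-values were not used. Of 113974 lines, 781 that repeated a transcript were dropped, and 199 transcripts with no gene symbol (at most 0.0989% of a library) were left out. Values were summed per symbol, and symbols with a mean of at least 1 were tested.

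The fit used limma 3.58.1 in R 4.3.3 on log2(value + 1), which understates the change of low genes, with 10 group means, a trended prior and Benjamini-Hochberg adjustment over all 13539 genes. It was tested on simulated data. It treats libraries as independent, although libraries with the same number within a genotype came from the same mouse per the labels. Their deviations from group means correlated at 0.0997 to 0.307 in WT and at -0.0511 to 0.08 in Tnfr2-/- mice. For genes given with values, those with the mouse as a fixed term stand beside them where they change a call, and p-values measure the spread between libraries of 4 mice. The fixed-term fit still counts the days of a mouse as separate values. By limma on mouse means, none of the genes given with a fixed-term value was called, for example Cxcl1 (adjusted p = 0.169) and Cdc20 (0.243).

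Named genes were those called, up to 6 per class with an unadjusted p under 0.01, a mean of at least 5 and the largest interaction, genes among the 3 of lowest p in each list described, and Tnfrsf1b. Areg was named outside this rule, and Clcf1, Cntf, Csf1, Ctf1 and Cxcl2 were named after their values were seen. The members, classes and gene lists were chosen with earlier results of these data known, and the fetal list is the study's own. Promoters were matched by symbol for 9998 of the genes tested. Some genes that the rule gave are not reported here.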

Additional observations from a re-analysis of the deposited data

Results flagged for a closer look

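For 20 genes the Tnfr2-/- effect differed between early and late days by the interaction test itself (limma, adjusted p 0.00483 to 0.0493, log2(value + 1) scale). Signaling genes had interactions of 2.17 for Ereg, 3.38 for Il6, 3.86 for Il11, 1.12 for Lif, 2.25 for Cxcl3, 2.19 for Fgf7, 1.61 for Ptges and 1.23 for Slit3. Other genes with a higher late difference were Brinp3 at 2.48, Syndig1 at 2.07, Pi15 at 1.94, Dcn at 1.81, Gldn at 1.69, Sod3 and Stox2 at 1.52 each, and Odc1 at 1.0. Lower values were -1.08 for Ccnd2, -1.83 for Nup210, and -2.66 and -2.69 for the pseudogenes Gm15914 and Rpl18-ps2. The late minus early changes of the mice did not overlap between the genotypes for any of the 20. The same held for 20.8% of all genes on the higher and 24.1% on the lower side. None of the 20 was called on those 4 values.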

How the results depend on the processing

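The direction held for the 96 genes compared, the called ones among them, under every alternative that gave a value (genes with a mean under 5 have none where that was the minimum), but calls did not: of 856 comparisons of the 20 called genes, 423 stayed called and 433 did not. Against 20 genes, 47 were called with libraries of a mouse correlated, 163 with the replicate block (each mouse) as a fixed term, and 1 on mouse means, the pseudogene Gm13736 (chosen after its value was seen), where 1618 had an unadjusted p under 0.05. The count was 10 with a pseudocount of 0.1, 55 with no filter, 35 after quantile normalization, 35 with days 1 and 2 as early, 2 with days 2 and 3, 11 with day 5 and 1 with day 7 as late, and 3 for a slope over days. It was 31 without WT mouse 1 on days 5 and 7. Leaving out 1 library or mouse gave 0 to 136. The counts of 0 came without either Tnfr2-/- mouse, with 718 and 968 genes at an unadjusted p under 0.05. With a mean of at least 5, the medians of IL-1, goblet and transporter genes were 0.799, -0.558 and -0.275, the prostaglandin median reversed to -0.0128, and with a pseudocount of 5 IL-1 and goblet genes had 0.568 and -0.644. Leaving out 1 mouse at a time, medians ranged from 0.693 to 1.12 for IL-1, 0.226 to 0.36 for NF-kappaB, -0.00983 to 0.243 for smooth muscle, 0.33 to 1.14 for collagens, 0.43 to 0.668 for metalloproteinases, 0.229 to 0.343 for regenerative, -0.477 to -0.247 for mitosis, -0.44 to -0.161 for fatty acid synthesis, -0.686 to -0.347 for xenobiotic, -0.904 to -0.529 for goblet, -0.567 to -0.262 for transporter, -0.456 to -0.0557 for brush border -0.18 to -0.129 for general epithelial and -0.186 to 0.0881 for interferon-stimulated genes. Without WT mouse 1 and without WT mouse 2 they were 0.367 and 0.993 for fibroblast markers, 0.203 and 0.61 for Wnt ligands, 0.296 and 0.661 for collagen cross-linking, 0.312 and 0.0324 for EGF and -0.374 and -0.0466 for S phase genes. Without Tnfr2-/- mouse 1 they were 0.529 for chemokines, 0.0691 for prostaglandin genes and -0.233 for D cyclins and inhibitors (-0.0357 without Tnfr2-/- mouse 2), and without WT mouse 1 the fetal list had 0.0124. Smooth muscle and interferon medians reversed without WT mouse 1. The cause was not tested. Read depth is not in the table, so counting error could not be set against these ranges.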
